A study of Papio hamadryas with 12 samples.

Results

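Transcript usage was examined in the 629 baboon genes that had 2 or more annotated transcripts, were not encoded on the mitochondrial chromosome and reached at least 10 counts, summed over their transcripts, in each of 12 libraries. They were 629 of 1695 genes with 2 or more transcripts and of 27533 genes in the deposited table, and they held 1275 transcripts. The share of a transcript was its counts divided by the counts of all transcripts of its gene in the same library, in percent. The leading transcript of a gene was the transcript with the highest mean share over the 12 libraries, and the remaining transcripts of the gene are called the rest. Total expression of the genes was not compared.

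A gene can yield several transcripts through alternative start sites, alternative splicing of exons and alternative polyadenylation sites. Transcripts of a gene can differ in the protein they encode or in their untranslated regions, and blood leukocytes are known to change splicing when they are activated. Because a short-read library rarely covers a whole transcript, reads that fall in sequence common to several transcripts must be divided among them by an estimation step.

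The libraries were made from buffy coat, the white cell layer of centrifuged blood, of 6 adult baboons (Papio hamadryas). Baboons 1 to 3 had low and baboons 4 to 6 had high low-density lipoprotein cholesterol (LDL-C), and the study describes them as pairs of sibs related through a single parent, which the sample labels do not identify. Each animal was sampled on a chow diet with 4% of calories from fat and again after 7 weeks on a high-cholesterol, high-fat (HCHF) diet with 40% of calories from fat. The 4 groups were therefore low LDL-C on chow, low LDL-C on HCHF, high LDL-C on chow and high LDL-C on HCHF, with 3 animals in each, and no group received any other labelled treatment.

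The libraries held 3434663 to 8518159 counts, of which the member genes took 0.509% to 5.31%. A pair of genes, at chr14:60046720-60049466 and chr20:39182-41379, took 16.3% to 89.3% of all counts. The share of this pair was highest in the chow library of baboon 2, in which the median member gene had 28 counts, against 76 to 236 in the other 11 libraries. It was lowest in baboon 6 on HCHF (16.3%) and baboon 1 on chow (16.8%). The deposited table gives Ensembl identifiers and does not pair them with gene names, so genes are given here by their position in the PapAnu2 assembly and no roles are assigned to them.

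Most of the 629 genes were dominated by a single transcript. The mean share of the leading transcript had a median of 85.6% (quartiles 67.4% and 96.4%, range 35.9% to 100%) and was above 90% in 255 genes (40.5%) and above 99% in 91 genes (14.5%). In 403 genes (64.1%) the same transcript had the highest share in all 12 libraries, and in the other 226 genes it varied. Ties were not left out of this split, which includes the 4 genes, described below, with equal shares in all 12 libraries. Because a buffy coat mixes cell types, a shift in the share cannot be told apart from a shift in the number of cells that use each transcript or in their RNA content. Of the members, 618 had 2 transcripts and 11 had more.

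**Figure D1:**
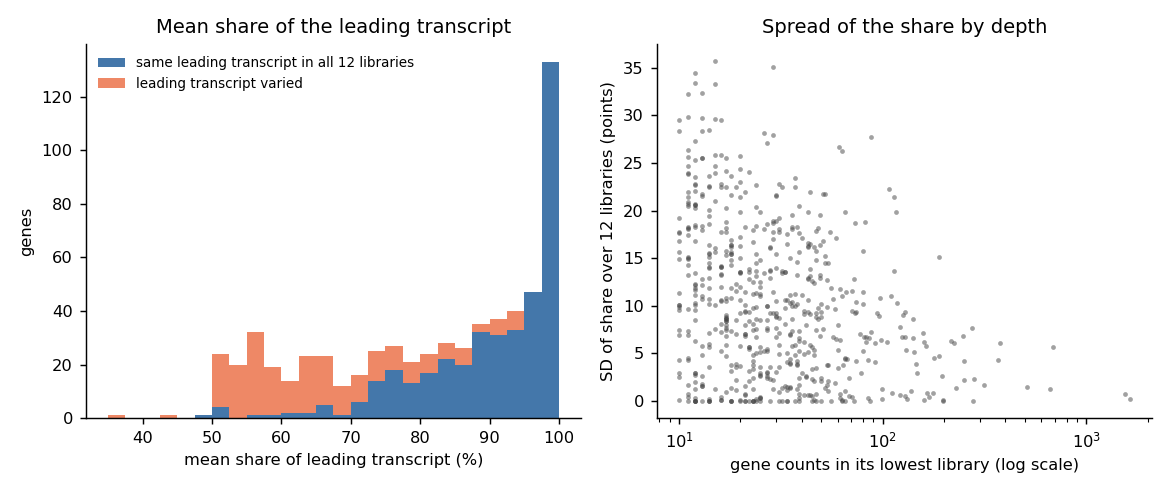
Left, the number of genes by mean share of the leading transcript over 12 libraries (percent), coloured by whether the same transcript led in every library; right, the SD of that share over the 12 libraries (percentage points) against the gene's counts in its lowest library on a log axis, with 1 point per gene. Genes pile up near 100%, where the leading transcript rarely varied, and the median SD fell from 13.3 points in genes with fewer than 20 counts in their lowest library to 6.08 points in genes with 50 or more.

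The spread of the share among libraries was larger than counting error. Of the 559 members with enough counts outside the leading transcript to be tested, 521 had a variance of the share over the 12 libraries above 2 times the binomial variance, with a median ratio of 8.95 (quartiles 4.54 and 16.3). The median SD of the share in these genes was 10.2 percentage points (quartiles 5.47 and 16.4). Depth moved with the spread: the leading transcript varied in 45.8% of the 225 genes with 10 to 20 counts in their lowest library, in 31.5% of 267 genes with 20 to 50 and in 28.5% of 137 genes with 50 or more. The estimation step that divides reads adds error that binomial variance does not include, and its size was not tested.

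The most abundant members show how narrow the share could be at high depth. The gene at chr14:60019646-60020727, with 93551 counts over the libraries, had leading shares of 86.7%, 86.9% and 85.9% on chow and 87.9%, 87.8% and 87.6% on HCHF in baboons 1 to 3. In baboons 4 to 6 the shares were 87.8%, 86.8% and 86.5% on chow and 88.2%, 86.6% and 83.3% on HCHF. The 12 values overlapped between the diets and between the phenotypes, and the lowest came from the library with the fewest counts for this gene (663).

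The other 4 genes with the highest counts had different profiles. The gene at chr1:25910075-25974872 has 3 transcripts, and its leading transcript, at 25910075 to 25914962, held 97.4% to 99.5%. The gene at chr8:69094776-69098266 ranged from 99% to 100%. The gene at chr4:69222636-69224899 ranged from 64.8% to 99.7%, and its counts ranged from 27 to 10634 per library. Its leading share lay between 64.8% and 94.9% in the 6 libraries with 27 to 352 counts and between 97.6% and 99.7% in the 6 libraries with 591 counts or more. The gene at chrX:141706845-141729477 was the most evenly divided of the 5, from 49.4% to 70.9%, with 377 to 3641 counts per library.

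Some shares did not vary at all. In 4 genes, each with a pair of transcripts annotated with the same start and stop, the shares were 50% in all 12 libraries, as for the genes at chr19:3335045-3354659, chr18:92727-124963 and chrX:142100665-142126421. The range over the 12 libraries was under 0.1 percentage points in 32 genes, these 4 among them. Of the 32, 23 lay within 0.1 points of 100% in all libraries. The other 9, which include the 4 at 50%, had a mean share under 99%. In 53 genes the share returned to the same value, within 0.1 percentage points and away from 0 and 100%, in at least 4 libraries. An example far from 100% is the gene at chr7:54599778-54638961, with 81.0% in the HCHF libraries of baboons 3 and 5 and the chow libraries of baboons 4 and 6. With these 53 genes left out, the leading transcript changed in 11.7% of genes within animals and differed in 11.8% between animals, against 12.2% and 12.3% with them.

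The annotated ends of the transcripts separated the members into 4 classes. The transcripts had the same start and stop in 287 genes (45.6%), differed at the stop alone in 142 (22.6%), at the start alone in 138 (21.9%) and at both in 62 (9.86%). Among all 1695 genes with 2 or more transcripts the same classes held 39.1%, 25.8%, 24% and 11.2%. The median of the mean leading share was 88.9% for genes with the same ends, 83.8% and 82.1% for genes that differed at the stop or at the start, and 79.3% for genes that differed at both. The leading transcript was the longest in genomic span in 174 genes and the shortest in 162.

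The 11 genes with over 2 transcripts include the least dominated member. In the gene at chr2:101733383-101901786 the mean shares of the 3 transcripts were 35.9%, 33.2% and 30.9%. The first, at 101862166 to 101901786, ranged from 18.5% to 55.7%, the second, at 101733383 to 101842051, from 17.3% to 57.9%, and the third, at 101733383 to 101869480, from 10.3% to 56.9%. Each of the 3 transcripts led in some libraries.

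The member with the most transcripts, 6, lies at chr19:37566172-37725399. Its leading transcript, at 37631553 to 37648328, held a mean of 49.6% and ranged from 34.2% to 57.4%. It led in all 12 libraries, ahead of a transcript spanning the whole gene with a mean of 20.5% (16.1% to 33.2%). The remaining 4 had mean shares of 13.6%, 9.76%, 4.23% and 2.36%.

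Whether the diet was accompanied by a change of leading transcript was first asked within each animal. Libraries in which transcripts tied were left out of the pair. Baboon 1 had another leading transcript on HCHF than on chow in 55 of 623 genes (8.83%), baboon 2 in 106 of 620 (17.1%) and baboon 3 in 75 of 620 (12.1%). Among high LDL-C animals the numbers were 48 of 624 genes (7.69%) for baboon 4, 102 of 622 (16.4%) for baboon 5 and 68 of 625 (10.9%) for baboon 6. The mean was 12.7% ± 4.16 (SD, n = 3) in low and 11.7% ± 4.40 (SD, n = 3) in high LDL-C animals, and the groups overlapped.

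Changes within animals were about as frequent as differences between animals. Over the 6 animals the mean was 12.2% ± 3.87 (SD, n = 6), and over the 30 pairs of libraries from different baboons on the same diet it was 12.3% (range 7.85% to 19.7%). The 12 pairs of the same phenotype had a mean of 12.3% and the 18 pairs of different phenotypes 12.4%. The pairs reuse the same libraries and are given as a description without a test. Counting only changes between libraries in which the leader was ahead by over 20 percentage points, the means were 5.93% within and 6.18% between animals.

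**Figure D2:**
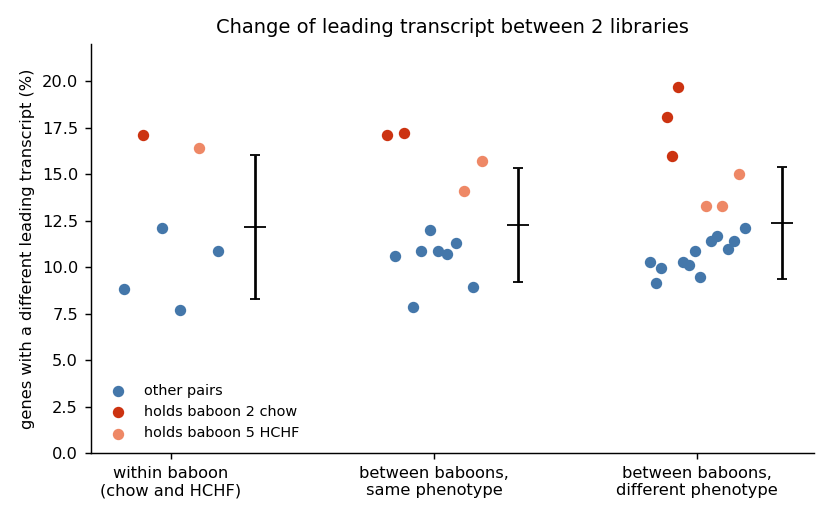
Percent of member genes whose leading transcript differed between 2 libraries (vertical axis), for the 6 chow and HCHF pairs of the same baboon, the 12 pairs of different baboons of the same phenotype and the 18 pairs of different phenotypes on the same diet, with 1 point per pair; black marks are the mean and SD of each set. The 3 means lie at 12.2%, 12.3% and 12.4%, and pairs with baboon 2 on chow or baboon 5 on HCHF sit highest in each set.

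The size of the differences in share was also similar within and between animals. The median absolute difference in leading share over the 559 tested members was 6.95 percentage points within animals (mean over 6 pairs, SD 2.06, range 5.49 to 10.4) and 7.28 between animals on the same diet (range 5.14 to 10.6). Between animals it was 7.53 for pairs of the same phenotype and 7.11 for pairs of different phenotypes. In 267 of the 559 genes (47.8%) the median difference within animals was smaller than the median difference between animals. By this distance, the library nearest to each was the other library of the same animal in 2 of 12 cases, both from baboon 3. Deviations from the group means, correlated over genes between the 2 libraries of an animal, ranged from -0.056 to 0.125.

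A pair of libraries stood apart from the other 10. The mean distance to all other libraries was 9.57 percentage points for baboon 2 on chow and 9.62 for baboon 5 on HCHF, against 6.27 to 7.29 for the rest. Depth was low in the first only: the median member had 28 counts in baboon 2 on chow and 103 in baboon 5 on HCHF. The gene's overall leading transcript led in 83.9% and 87.9% of members in these libraries and in 91.3% to 94.3% in the others. Without baboons 2 and 5, the leading transcript changed in 11.1% of genes within animals and differed in 12% between animals.

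In the HCHF library of baboon 5 the shares that stood apart had a direction. A gene was counted where its leading share lay over 20 percentage points from the median of the other 11 libraries. Among 145 tested members whose leading transcript had the longest span, 37 were lower and 12 higher in this library. Among 154 whose leading transcript had the shortest span, 11 were lower and 25 higher. Taken by direction, 62 genes had moved toward the transcript of shorter and 23 toward that of longer genomic span. In the chow library of baboon 2 the counts were 47 and 27, and in the other 10 libraries they were 10 to 23 toward the shorter and 11 to 22 toward the longer. The lengths of the RNAs themselves were not compared, and the part of RNA quality in this pattern was not tested.

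**Figure D3:**
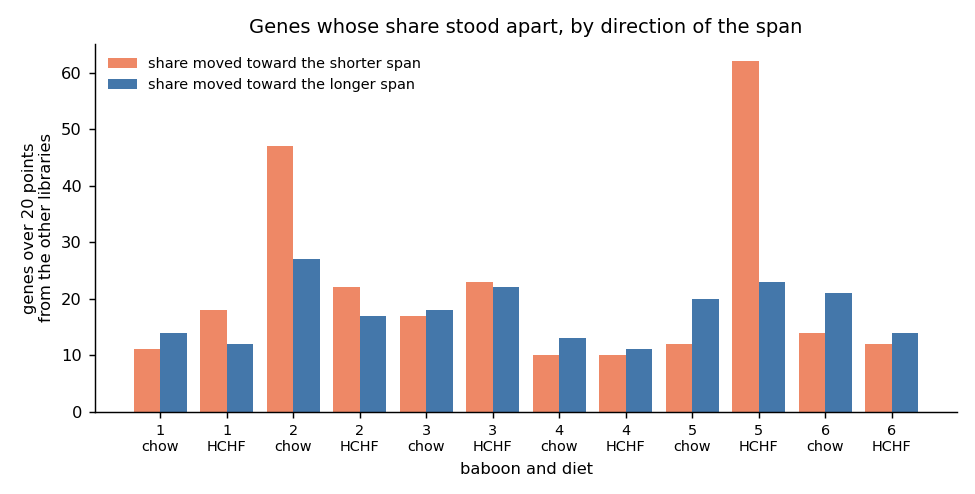
Number of tested member genes (vertical axis) whose leading share lay over 20 percentage points from the median of the other 11 libraries, for each library by baboon and diet, divided by whether the share had moved toward the transcript with the shorter (orange) or the longer (blue) genomic span. The HCHF library of baboon 5 holds 62 genes toward the shorter and 23 toward the longer span, and the chow library of baboon 2 holds 47 and 27.

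No gene changed its leading transcript in all 6 animals. Over the 6 baboons, 408 genes had no change, 90 had 1, 65 had 2, 37 had 3, 22 had 4 and 7 had 5. Libraries with tied transcripts were not left out of this count. Of the 66 genes with 3 or more changes, 15 changed in a single direction, 9 toward the overall leading transcript on HCHF and 6 away from it, and 51 changed in both directions. The transcript with the higher mean share differed between chow and HCHF in 33 genes and between low and high LDL-C in 39. In 0 genes did all chow libraries have another leading transcript than all HCHF libraries, and likewise in 0 genes for low against high LDL-C. None of the counts in this paragraph was made over all genes with 2 or more transcripts. The mean leading share was under 60% in 98 members, so 33 and 39 are not read as an effect of diet or phenotype.

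The 5 genes named for the most changes were divided close to evenly or varied widely. In the gene at chr11:50686125-50713635 the leading share on chow was 46.9%, 52.8%, 59.2%, 54.7%, 63.5% and 53.5% in baboons 1 to 6, and on HCHF 53.0%, 42.0%, 46.6%, 39.5%, 42.6% and 53.4%. The share was lower on HCHF in 5 of 6 animals, and the diets overlapped. In the gene at chr1:22931998-22948348 the shares on chow were 66.4%, 62.7%, 44.9%, 87.3%, 88.2% and 48.4%, and on HCHF 43.4%, 35.2%, 57.8%, 77.1%, 22.6% and 82.6%. It was lower on HCHF in 4 animals and higher in 2.

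The gene at chr11:60625985-60704029 ranged from 19.8% in the HCHF library of baboon 5 to 97.1% in the chow library of baboon 4. Its counts were low, from 10 to 185 per library. Within each phenotype it was higher on HCHF in some animals and lower in others. The gene at chr7:54599778-54638961 was higher on HCHF in all 3 low LDL-C animals, at 27.3%, 36.2% and 17.9% on chow and 52.6%, 72.2% and 81.0% on HCHF. In high LDL-C animals it had 81.0%, 34.7% and 81.0% on chow and 50%, 81.0% and 13.0% on HCHF, in both directions. This is the gene with repeated values of 81.0%. The fifth, at chr2:101733383-101901786, is the gene with 3 nearly equal transcripts. Its leading share was higher on HCHF in all 6 animals, at 34.4%, 37.0%, 32.4%, 29.1%, 18.5% and 22.7% on chow and 55.7%, 39.0%, 45.6%, 37.5%, 44.1% and 34.8% on HCHF. The diets overlapped, and the log2 odds ratio of 0.90 ± 0.35 (SE) did not pass (edgeR quasi-likelihood test, unadjusted p = 0.0373, adjusted p = 1).

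Change in the odds of the leading transcript against the rest was then tested with edgeR's quasi-likelihood test with Benjamini-Hochberg adjustment over all 1083 genes that could be fitted, of which 559 were members. The threshold for a call was an adjusted p under 0.20, the false discovery rate that the study used for genes, together with an unadjusted p under 0.05. For HCHF against chow over the 6 baboons, 0 of 559 members were called (0% of all 1083 genes). At an unadjusted p under 0.05 there were 28 members (5.01%), against 3.88% of all genes tested. DESeq2 and limma with either pseudocount likewise called 0 members, and diffSpliceDGE called 1 (0.179%), against 0.0923% of all genes. The median log2 odds ratio was 0.01 over members and 0.04 over all genes tested, and the median standard error of a member was 0.81 (quartiles 0.55 and 1.22). Each standard error (SE) given here was calculated back from the log2 odds ratio and the F statistic of the test. It is unreliable where the ratio is near 0.

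The member with the lowest p for the diet was ENSPANG00000011785, at chr5:46570046-46594548. Its transcripts differ at the start, at 46570046 for the leading and 46570109 for the other. The leading share on chow was 62.4%, 87.6%, 99.2%, 89.9%, 75.4% and 94.9% in baboons 1 to 6, and on HCHF 58.8%, 64.0%, 86.9%, 64.3%, 53.2% and 65.2%. It was lower on HCHF in 6 of 6 animals, by a mean of -19.5 percentage points, although the diets overlapped. The log2 odds ratio was -2.13 ± 0.51 (SE), with an unadjusted p = 0.00441 and an adjusted p = 1 by edgeR. This was the gene called by diffSpliceDGE, used here as a test per gene of any difference in usage among its transcripts (adjusted p = 0.114). Counts for the gene were 80 to 684 per library.

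The next was ENSPANG00000008979, at chr8:19840323-19960104, with 3 transcripts, one of which was listed at 0 in every library. The leading transcript, which stops at 19928131, held 65.4%, 59.6%, 64.4%, 67.4%, 65.1% and 51.5% on chow. On HCHF it held 78.2%, 71.8%, 83.9%, 87.4%, 86.7% and 70.6%, so that every HCHF library lay above every chow library. The other transcript, which stops at 19957716, took the remainder, 32.6% to 48.5% on chow and 12.6% to 29.4% on HCHF. The log2 odds ratio of the leading transcript was 1.32 ± 0.37 (SE), with an unadjusted p = 0.00889 and an adjusted p = 1 by edgeR. The gene was the only member whose shares did not overlap between diets, 1 of 559 (0.179%), against 0.277% of all 1083 genes.

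A share that moved the same way in every animal was also near the background. The leading share was higher on HCHF in all 6 animals in 14 of 559 members (2.50%), against 2.12% of all genes, with mean differences of 1.36 to 36.6 percentage points. It was lower in all 6 in 12 members (2.15%), against 1.48% of all genes, with mean differences of -29.5 to -3.94 percentage points.

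**Figure D4:**
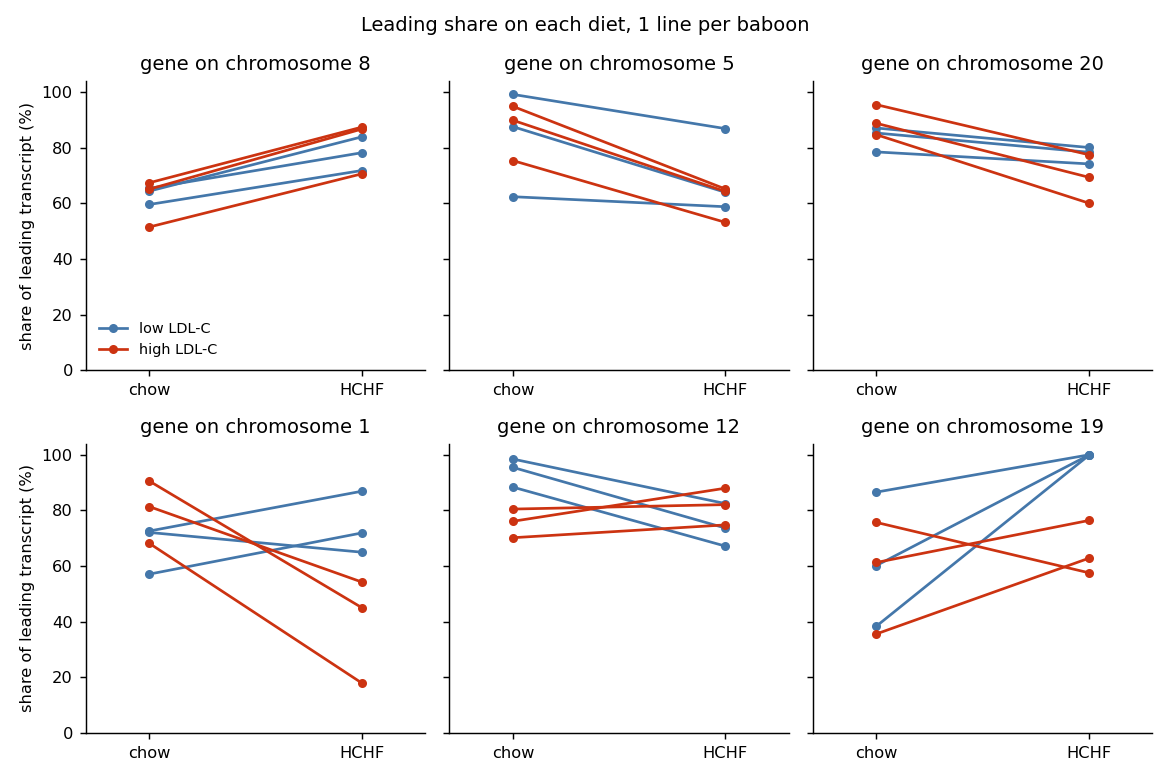
Share of the leading transcript (percent, vertical axis) on chow and HCHF in the 6 member genes with the lowest p in the diet comparisons, with 1 line per baboon, blue for low and red for high LDL-C. All 6 lines go up for the gene on chromosome 8 and down for those on chromosomes 5 and 20, while the genes on chromosomes 12 and 19 show low LDL-C lines that move together and high LDL-C lines with smaller or mixed moves; none of the 6 was called by edgeR.

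Within the low LDL-C animals 0 members were called (0% of all genes). At an unadjusted p under 0.05 there were 20 members (3.58%), against 3.05% of all genes. DESeq2 and diffSpliceDGE each called 1 (0.179%), against 0.0923% of all genes, and limma 0. The lowest p was that of the gene at chr12:81511835-81538572, whose transcripts have the same ends. Its leading share was 95.5%, 98.5% and 88.4% on chow and 73.7%, 82.5% and 67.2% on HCHF in baboons 1 to 3, so the diets did not overlap. The log2 odds ratio was -2.60 ± 0.51 (SE), with an unadjusted p = 0.00219 and an adjusted p = 0.998 by edgeR. Genes named for a low p were picked from the comparison shown. A lack of overlap between its 3 and 3 libraries, here and below, is therefore no separate support. How often all genes lacked such overlap was not counted.

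The gene at chr19:43196192-43210301 had the opposite direction in the low LDL-C animals. The leading transcript held 60.2%, 38.4% and 86.6% on chow and 99.9%, 99.8% and 100% on HCHF. The other transcript, with the same ends, held 91.4 of 284 counts over the 3 chow libraries and 0.180 of 212 over the 3 HCHF libraries, so no fold is given. In the high LDL-C animals the leading share was 75.7%, 35.6% and 61.3% on chow and 57.6%, 62.8% and 76.4% on HCHF, and the diets overlapped. By edgeR the diet difference in low LDL-C animals had an unadjusted p = 0.00312 and an adjusted p = 0.998. This was the gene called by DESeq2 (adjusted p = 0.00374) and by diffSpliceDGE (adjusted p = 0.159).

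Within the high LDL-C animals edgeR called 0 members (0% of all genes). DESeq2 also called 0 members and 0.0923% of all genes, and limma and diffSpliceDGE called none of either. At an unadjusted p under 0.05 there were 28 members by edgeR (5.01%), against 3.51% of all genes. The lowest p was that of ENSPANG00000018485, at chr20:14537484-14587021. On chow its leading share was 95.5%, 84.7% and 88.8% in baboons 4 to 6, and on HCHF it was 77.5%, 60.1% and 69.4%. The diets did not overlap in these animals, and the log2 odds ratio was -2.08 ± 0.40 (SE; unadjusted p = 0.00212, adjusted p = 0.985 by edgeR). In baboons 1 to 3 the shares were 87.1%, 85.3% and 78.5% on chow and 80.1%, 78.4% and 74.2% on HCHF, lower in each animal by a smaller amount.

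The second was the gene at chr1:53792107-53953009. In baboons 4 to 6 the leading transcript held 90.6%, 68.2% and 81.4% on chow and 45.1%, 18% and 54.3% on HCHF. The other transcript led in the HCHF libraries of baboons 4 and 5. The log2 odds ratio was -2.88 ± 0.65 (SE; unadjusted p = 0.00429, adjusted p = 0.985 by edgeR). In baboons 1 to 3 the shares were 57.1%, 72.1% and 72.6% on chow and 71.9%, 65.0% and 86.9% on HCHF, and moved both ways.

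Whether the change with diet differed between the phenotypes was tested by an interaction term. By edgeR 0 members were called (0% of all genes), and 27 members (4.83%) had an unadjusted p under 0.05, against 3.42% of all genes. DESeq2, limma and diffSpliceDGE also called 0. The lowest p again came from the gene at chr12:81511835-81538572, with a difference in log2 odds ratio, high minus low, of 3.16 ± 0.69 (SE; unadjusted p = 0.00373, adjusted p = 0.997 by edgeR). Its leading share in baboons 4 to 6 was 70.2%, 76.1% and 80.5% on chow and 74.8%, 88.0% and 82.1% on HCHF, higher in each, whereas it was lower in each low LDL-C animal. Such opposite directions in every low and every high LDL-C animal occurred in 15 of 559 members (2.68%), against 2.49% of all genes. The gene at chr19:43196192-43210301 followed (unadjusted p = 0.00781, adjusted p = 0.997 by edgeR).

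Low and high LDL-C animals were compared on each diet. On chow edgeR called 0 members (0% of all genes), and 21 (3.76%) had an unadjusted p under 0.05, against 3.42% of all genes. DESeq2, diffSpliceDGE and limma with either pseudocount also called 0 members; limma with a pseudocount of 0.5 called 0.185% of all genes and the others none. The lowest p was that of the gene at chr1:4245754-4266984. Its leading share on chow was 87.5%, 81.4% and 76.7% in low and 96.5%, 98.4% and 96.1% in high LDL-C animals, which did not overlap. The log2 odds ratio, high against low, was 2.70 ± 0.62 (SE; unadjusted p = 0.00514, adjusted p = 0.999 by edgeR). On HCHF the same gene had 97.5%, 87.9% and 97.1% in low and 96.5%, 94.7% and 64.6% in high LDL-C animals, which overlapped.

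The second on chow was the gene at chrX:44263362-44281204. Low LDL-C animals had leading shares of 88.5%, 90.2% and 93.6% and high LDL-C animals 98.5%, 97.5% and 98.0%. The log2 odds ratio was 2.21 ± 0.56 (SE; unadjusted p = 0.00796, adjusted p = 0.999 by edgeR). On HCHF the shares were 96.4%, 97.2% and 94.0% in low and 89.3%, 92.0% and 95.8% in high LDL-C animals, which overlapped.

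On HCHF 0 members were called by edgeR (0% of all genes), and 15 (2.68%) had an unadjusted p under 0.05, against 2.59% of all genes. DESeq2 called 2 members (0.358%), against 0.369% of all genes. DiffSpliceDGE called 1 (0.179%), against 0.185% of all genes, and limma with a pseudocount of 0.5 called 1, against 0.0923%. All 3 called the gene at chr19:43196192-43210301, whose HCHF shares are given above (edgeR unadjusted p = 0.00180, adjusted p = 1; DESeq2 adjusted p = 0.00401; diffSpliceDGE adjusted p = 0.0426; limma adjusted p = 0.0957). All 3 low LDL-C animals lay at 99.8% or above and all 3 high LDL-C animals at 76.4% or below. The other gene called by DESeq2, at chr7:109466113-109589109 (adjusted p = 0.117), was named after its values were seen. Its HCHF shares were 11.7%, 48.7% and 43.4% in low and 99.5%, 88.8% and 99.2% in high LDL-C animals, on 15 to 66 counts per library.

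The gene with the second lowest edgeR p on HCHF lies at chr15:36773800-36805910. Its leading share was 85.2%, 96.5% and 87.1% in low and 99.1%, 99.4% and 99.1% in high LDL-C animals. The groups did not overlap, and the log2 odds ratio of 3.68 ± 0.75 (SE) did not pass by edgeR (unadjusted p = 0.00309, adjusted p = 1). That ratio rests on few counts: in high LDL-C animals on HCHF the other transcript held 3.27 of 405. On chow the leading share was 92.6%, 100% and 100% in low and 99.8%, 77.7% and 88.4% in high LDL-C animals, which overlapped.

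The leading share separated the phenotypes on both diets together in 2 of 559 members (0.358%), against 0.185% of all genes. The gene at chr13:54117356-54196657 had 92.6%, 89.9% and 91.6% on chow and 94.7%, 96.8% and 97.4% on HCHF in low LDL-C animals. In high LDL-C animals it had 85.4%, 68.1% and 86.1% on chow and 78.9%, 88.7% and 79.7% on HCHF. All 6 low LDL-C libraries lay above all 6 high LDL-C libraries, with a gap of 1.18 percentage points. The leading transcript stops at 54155368 and the other at 54196657, and the gene had 12 to 211 counts per library.

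The second, at chr17:89252589-89346563, was separated by 0.283 percentage points. This gap rests on very few counts. In high LDL-C animals the other transcript held 1.31 of 172 counts on chow and 1.09 of 170 on HCHF. The gene's leading share was 98.7% to 100% in the 6 high LDL-C libraries. In the low LDL-C libraries it was 94.9%, 96.2% and 86.6% on chow and 98.4%, 98.4% and 25.6% on HCHF, the last from a library with 17 counts for the gene. By edgeR neither gene passed on either diet.

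Whether the animals differed among themselves within a phenotype, beyond the difference between their own libraries, was tested with an F test over 4 terms. By edgeR 1 of 559 members was called (0.179%), against 0.0923% of all genes, and 21 members (3.76%) had an unadjusted p under 0.05, against 2.68% of all genes. The called gene lies at chr19:29692826-29709864 and has a pair of transcripts with the same ends. Its leading share was 100% on both diets in baboon 2 (low LDL-C) and in baboon 4 (high LDL-C), with 0 counts for the other transcript among 61 to 344 counts per library. In baboon 1 it was 46.2% on chow and 53.3% on HCHF, in baboon 3 46.8% and 51.1%, in baboon 5 47.1% and 52.8%, and in baboon 6 47.4% and 31.4%.

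The values of the called gene thus fell into animals with the leading transcript alone and animals with both transcripts, and each phenotype held both kinds. The edgeR test gave an unadjusted p = 1.2e-04 and an adjusted p = 0.125. Without any one baboon the gene was no longer called, with adjusted p = 0.247 without baboon 2, 0.254 without baboon 5, 0.301 without baboon 6, 0.562 without baboon 1, 0.612 without baboon 4 and 0.655 without baboon 3. The unadjusted p by edgeR in these fits ranged from 2.3e-04 without baboon 2 to 6.0e-04 without baboon 3. DESeq2 called it at an adjusted p = 3.8e-19 and limma at 0.00346 with a pseudocount of 0.5 and 0.0105 with a pseudocount of 2.

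DESeq2 called 14 members (2.50%) as different among animals, against 1.75% of all genes, and limma with a pseudocount of 2 called 3 (0.537%), against 0.277%. The 3 genes with the next lowest edgeR p were not called by edgeR and were named after their values were seen. In the gene at chr16:28507346-28586602 the leading share was 43.1% and 44.1% in baboon 3 and 54.8% and 18.7% in baboon 5, on chow and HCHF, and 89.8% to 97.0% in the other 8 libraries (unadjusted p = 0.00112, adjusted p = 0.605 by edgeR). That gene was called by DESeq2 (adjusted p = 4.7e-06) and by limma with a pseudocount of 2 (adjusted p = 0.175). For the genes that follow, only edgeR values are given. In the gene at chr14:11003905-11017108 the leading share was 46.4% and 24.4% in baboon 5 and 68.0% to 98.6% in the other animals (unadjusted p = 0.00179, adjusted p = 0.646 by edgeR). In the gene at chr3:17507344-17540318 it was 66.8% and 35.4% in baboon 5 and 84.3% to 99% in the other animals (unadjusted p = 0.00355, adjusted p = 0.960 by edgeR). Baboon 5 was low in all 3, and in each its HCHF library, one of the pair that stood apart, was lower than its chow library.

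**Figure D5:**
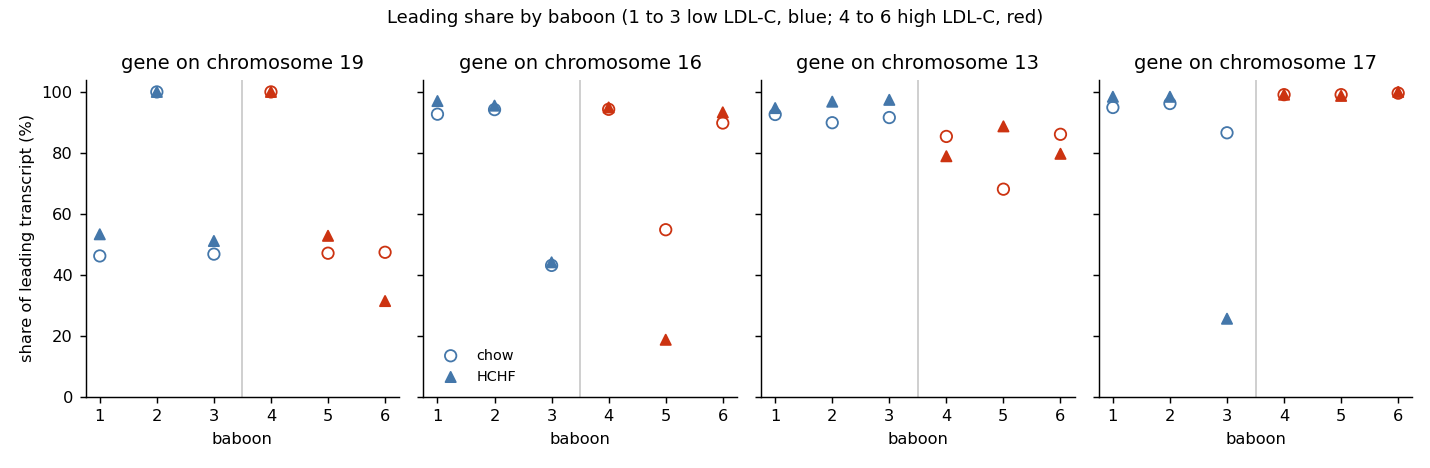
Share of the leading transcript (percent, vertical axis) in each baboon (horizontal axis) for 4 member genes, with open circles for chow and filled triangles for HCHF, blue for low and red for high LDL-C. The gene on chromosome 19 is at 100% in baboons 2 and 4 on both diets and between 31.4% and 53.3% in the others, the gene on chromosome 16 is low in baboons 3 and 5, and the genes on chromosomes 13 and 17 are those whose low and high LDL-C values do not overlap.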

How the data were processed

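Buffy coat RNA of 6 baboons on 2 diets was sequenced as 12 libraries. After trimming, the authors used STAR 2.3.1j against the PapAnu2 transcriptome of Ensembl release 76, and Partek Flow to quantify transcripts; the submitters' processing notes also name CASAVA 1.8. The deposited values are expected counts (estimated counts that need not be whole) for 29300 transcripts, with gene, chromosome, start and stop. Paired diet labels of the same animal gave the replicate block.

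Shares were computed from the deposited expected counts. For tests, counts of the leading transcript and of the rest were rounded, and edgeR 4.0.16 (R 4.3.3) was fitted with a term per library and, for diet, per baboon; genes needed a mean of 1 CPM and 10 counts in the rest. 70 members were below this and were described only. Alternatives were DESeq2 1.42.0, limma 3.58.1, diffSpliceDGE, other filters and leaving out animals. The edgeR fit was also run on simulated counts with planted changes on HCHF and no differences between animals. What size of change the tests could detect is not reported here.

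Members, lists and tests were chosen with earlier results of these data known. Named genes were, per comparison, called members or else the 2 with the lowest p; those with most changes of leading transcript, no overlap between phenotypes, highest counts, shares closest to 50% or 5 or more transcripts. Lists of genes and cell type markers fixed by symbol could not be matched to the identifiers and were not used, so the labelled tissue was not checked against markers. Libraries of the same animal correlated in their deviations from group means at -0.056 to 0.125 over 559 genes; the pairing comes from the animal labels.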

Additional observations from a re-analysis of the deposited data

Results flagged for a closer look

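Shares of 3 of the genes named in the report moved one way on HCHF in every low LDL-C animal and the other way in every high LDL-C animal. For the gene at chr12:81511835-81538572 the mean change in leading share was -19.7 percentage points in low and 6.10 in high LDL-C animals. For the gene at chr1:4245754-4266984 the low LDL-C mean was 12.3 and the high LDL-C mean -11.7, the latter set mainly by baboon 6, whose share was 96.1% on chow and 64.6% on HCHF. Baboon 4 barely moved, with 96.5% on both diets and 3.48% and 3.51% for the other transcript. For the gene at chrX:44263362-44281204 the mean changes were 5.05 (low) and -5.66 (high). Tested as an interaction, the unadjusted p-values by edgeR were 0.00373, 0.0252 and 0.0164 and the adjusted p was 0.997 for all 3. Opposite directions of this kind occurred in 15 of 559 members (2.68%) and in 2.49% of all 1083 genes tested. The genes on chromosomes 1 and X were named for a low p between phenotypes on chow. The gene on chromosome 12 was named for a low p for diet in low LDL-C animals and for the interaction. Their opposite directions draw on the values that chose them and are no separate support.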

How the results depend on the processing

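Counts of members called, with edgeR's quasi-likelihood test as reported, were 0 in the 6 comparisons of diet and phenotype and 1 among animals. At an unadjusted p under 0.05 they became 28 for diet over 6 baboons, 20 for diet in low and 28 for diet in high LDL-C animals, 27 for diet by phenotype, 21 and 15 for phenotype on chow and on HCHF, and 21 among animals. DESeq2 gave 1 for diet in low LDL-C animals, 2 for phenotype on HCHF and 14 among animals, diffSpliceDGE gave 1 for diet over 6 baboons, for diet in low LDL-C animals and for phenotype on HCHF, limma with a pseudocount of 0.5 gave 1 for phenotype on HCHF, and with a pseudocount of 2 gave 3 among animals. The call among animals became 0 at an adjusted p under 0.05, without baboons 1 and 6, without baboons 2 and 5 (these pairs were chosen after seeing the data) and without any single baboon (lowest 0, highest 0). The cause of these differences was not tested. Leaving out any animal or changing the filter or size factors gave 0 in the other 6 comparisons. Without the replicate block the 4 diet comparisons again called 0 members, and the block changed no call; the 2 log2 odds ratios named for diet over 6 baboons were -2.08 and 1.31. No log2 odds ratio named in the report changed sign under an alternative. The number of members was 404 at 20 and 137 at 50 counts in each library. With leads of over 20 percentage points, changes of leading transcript were 5.93% within and 6.18% between animals. With 50 counts in each library the median difference in share was 4.62 percentage points within and 4.87 between animals. The depth of the chow library of baboon 2 limits the set: without baboon 2 the members numbered 869. The ratio to binomial variance covers counting error only.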
